A study of Mus musculus with 12 samples.

Results

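The genes described here are 10 members of the YAP and TEAD pathway, chosen by name: Yap1, Wwtr1, Tead1, Ccn1, Ccn2, Ankrd1, Amotl2, Ajuba, Lats2 and Axl. They are 10 of the 40551 genes counted in 12 total RNA sequencing libraries of mouse liver, with 3 livers of each of 4 genotypes. All 10 passed the filter on low counts that left 15070 genes for testing. The study asked how loss of STING, a sensor pathway protein for cytosolic DNA, alters chronic liver disease caused by loss of MCL1 from hepatocytes.

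The 4 genotypes were WT, Mcl1Δhep (labelled Mcl1 KO), Sting1-/- (labelled Sting1 KO) and Mcl1Δhep Sting1-/- (labelled Mcl1 Sting1 DKO). Mcl1Δhep mice carried floxed Mcl1 alleles and an Alb-Cre transgene, whose albumin promoter is active in hepatocytes. The study reports that MCL1 staining in these livers remained almost only in nonparenchymal cells. MCL1 protects cells from apoptosis. Sting1-/- mice carried a knockout allele that was not described in the sources used here, and the double mutants came from a cross of both lines. The study analysed WT, Mcl1Δhep and Mcl1Δhep Sting1-/- mice at 2 and 12 months and used both sexes. It describes the livers behind its comparison of WT and Mcl1Δhep transcriptomes as 2 months old. The sex of each sequenced mouse and the age of the sequenced Sting1-/- and Mcl1Δhep Sting1-/- mice were not given in the sources used here.

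YAP and TAZ are transcriptional coactivators without a DNA-binding domain of their own. In the nucleus they bind TEAD factors and switch on target genes, and the kinases of the Hippo pathway, which end in LATS1 and LATS2, phosphorylate them and hold them in the cytoplasm. In the liver this pathway is known for its control of organ size, of regeneration after injury and of the activation of stellate cells. Its activity is set mainly by the phosphorylation and location of YAP and TAZ proteins, which RNA counts do not measure.

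The libraries held 28826367 to 45266387 counts. Markers of hepatocytes summed to between 91126 and 155075 CPM (counts scaled to library size with trimmed mean of M values factors) in every library, and most of each sum was Alb. In Mcl1Δhep against WT livers 5 of these 8 markers ran lower and 3 higher, and 1 was called lower by edgeR. Mean Cyp2e1 was 7017 CPM in WT and 2197 CPM in Mcl1Δhep livers. Mcl1 was at 18.1 to 34.0 CPM in the 6 Mcl1-deleted livers against 77.0 to 104 CPM in the other 6. Sting1 was at 1.16, 1.72 and 2.70 CPM in the Sting1-/- libraries and at 2.53, 2.43 and 2.11 CPM in WT (log2 fold change -0.33, edgeR adjusted p = 0.998). In the double mutants it was at 1.90, 2.53 and 2.33 CPM, below the 4.59, 5.997 and 3.67 CPM of Mcl1Δhep livers (log2 fold change -1.05, unadjusted p = 0.00328, edgeR adjusted p = 0.134). These 2 groups did not overlap, as was so for 18.2% of all genes, and ran the way of the label, while Sting1-/- and WT livers overlapped. The double mutant values, at 1.90 to 2.53 CPM, also overlapped those of WT, at 2.11 to 2.53 CPM. Counts over the whole gene therefore checked the Sting1-/- label only in part, and every direction for Sting1 below rests on that label. Replicates 2 and 3 of Mcl1Δhep stood apart, with 2.37% and 1.36% of counts in small RNA genes and 0.580% and 0.565% in mitochondrial genes. In the other 10 libraries these shares were 0.172 to 0.897% and 1.05 to 1.63%. Y-linked transcripts were found in WT replicates 2 and 3 and double mutant replicate 1 and were near 0 elsewhere, so that sex was not balanced between genotypes.

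The mean level per length in WT livers, in TPM (counts scaled to the summed exon length of a gene and to the library), ran from 24.7 ± 1.58 (SD, n = 3) for Yap1 to 0.557 ± 0.393 for Ankrd1. Amotl2 at 18.9 TPM, Axl at 17.3 TPM, Ccn1 at 13.9 TPM and Ajuba at 13.1 TPM lay in between, followed by Ccn2 at 8.27, Lats2 at 8.24, Wwtr1 at 7.72 and Tead1 at 1.22 TPM. In Mcl1Δhep livers Axl was first, at 30.1 ± 9.51 TPM, above Yap1 at 21.7 ± 9.92 TPM. The ranges of both genes overlapped between replicates, but within each Mcl1Δhep library Axl was above Yap1. How much of the spread in TPM was shared by all genes of a library was not tested. Yap1 was above Wwtr1, the gene for TAZ, by 1.78- to 3.61-fold in TPM in each of the 12 libraries. In bulk liver, more or fewer cells of a type and more or less RNA per cell cannot be told apart, and this holds for each level and change given here.

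Promoters were read because TEAD factors bind a known short motif, GGAATG. The motif was searched on both strands (CATTCC is its reverse) from 250 bases before to 50 bases after the canonical transcript start, in the mouse genome GRCm39. It was present in 6 of 9 promoters of the pathway genes (66.7%), against 5 of 25 upstream pathway genes (20.0%), 3 of 16 other published targets (18.8%) and 3047 of 21770 protein-coding genes (14.0%). Shown here are Axl, the gene that passed the test below, Ccn1, a classical target that did not, each with 1 copy, and Ajuba, a gene without a copy. The 250 bases before each start are given 5′ to 3′ on the strand of the gene, and capitals mark the motif. The regions are chr7:25488330-25488579 (minus strand) for Axl, chr3:145355739-145355988 (minus strand) for Ccn1 and chr14:54815016-54815265 (minus strand) for Ajuba.
Axl: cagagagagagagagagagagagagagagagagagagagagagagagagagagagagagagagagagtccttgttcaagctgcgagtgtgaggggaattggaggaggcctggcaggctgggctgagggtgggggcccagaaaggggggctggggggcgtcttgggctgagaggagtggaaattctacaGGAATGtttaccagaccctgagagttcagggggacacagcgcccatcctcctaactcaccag
Ccn1: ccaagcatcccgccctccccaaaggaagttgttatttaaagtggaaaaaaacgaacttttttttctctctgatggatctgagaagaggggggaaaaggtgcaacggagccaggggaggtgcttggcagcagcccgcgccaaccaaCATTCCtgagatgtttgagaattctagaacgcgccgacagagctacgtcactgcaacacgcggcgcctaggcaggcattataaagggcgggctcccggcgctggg
Ajuba: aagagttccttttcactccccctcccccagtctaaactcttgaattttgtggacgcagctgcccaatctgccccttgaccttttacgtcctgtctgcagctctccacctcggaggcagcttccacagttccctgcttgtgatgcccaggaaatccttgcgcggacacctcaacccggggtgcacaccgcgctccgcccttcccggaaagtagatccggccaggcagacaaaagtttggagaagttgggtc
The single copies of Axl and Ccn1 began 62 and 105 bases before the start, that of Ccn1 on the opposite strand. Amotl2 held 2 copies, Tead1 held 3, and Yap1 and Wwtr1 held 1 each. No copy lay in the windows of Ankrd1, Ajuba and Lats2, which says only that these letters were not in these 300 bases.

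**Figure D1:**
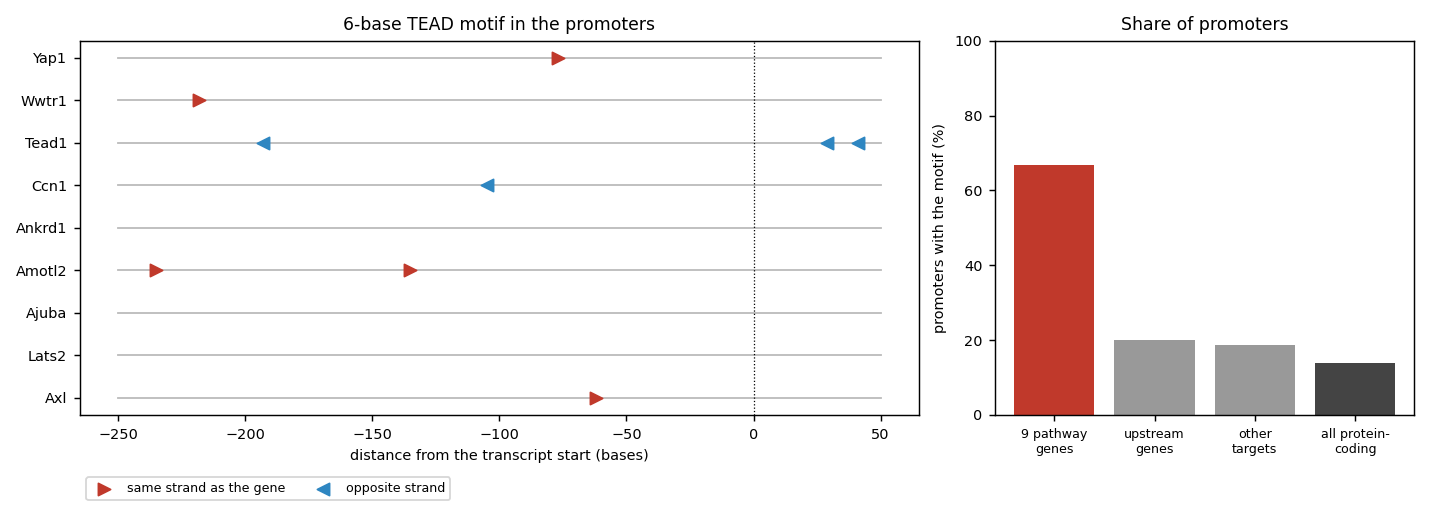
Left, position of each copy of the 6-base TEAD motif in bases from the transcript start (dotted line) for 9 of the genes, with right-pointing triangles for the strand of the gene and left-pointing triangles for the opposite strand. Right, percentage of promoters that hold the motif, 66.7% of the 9 genes against 14.0% of all protein-coding genes.

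Hepatocyte loss of Mcl1 was first compared in mice with STING, as Mcl1Δhep against WT. Of the 10 genes, 1 rose and 0 fell at an adjusted p under 0.05, where 10.8% and 9.43% of all tested genes did (edgeR quasi-likelihood test, 3 against 3, Benjamini-Hochberg adjustment over 15070 genes). The gene that rose was Axl. The coactivators, Tead1 and the classical target Ccn1 did not pass the test. The groups did not overlap for 2 of the 10 genes, Axl and Amotl2, against 33.3% of all genes. The median log2 fold change of the 10 genes was 0.10, beside -0.0049 over all tested genes.

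Axl, at chr7:25456535-25488329 on the minus strand, encodes a receptor tyrosine kinase that binds GAS6 and takes part in the uptake of dying cells. Its level was 44.5, 36.4 and 52.0 CPM in WT and 91.1, 74.7 and 69.9 CPM in Mcl1Δhep livers. The lowest Mcl1Δhep liver lay above the highest WT liver. The log2 fold change was 0.83 ± 0.149 (SE; 95% interval 0.50 to 1.15), a 1.77-fold rise with an edgeR adjusted p of 0.00486. The rise kept its side of the threshold in 19 of 19 alternative fits, from 0.70 to 0.95 on the log2 scale.

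**Figure D2:**
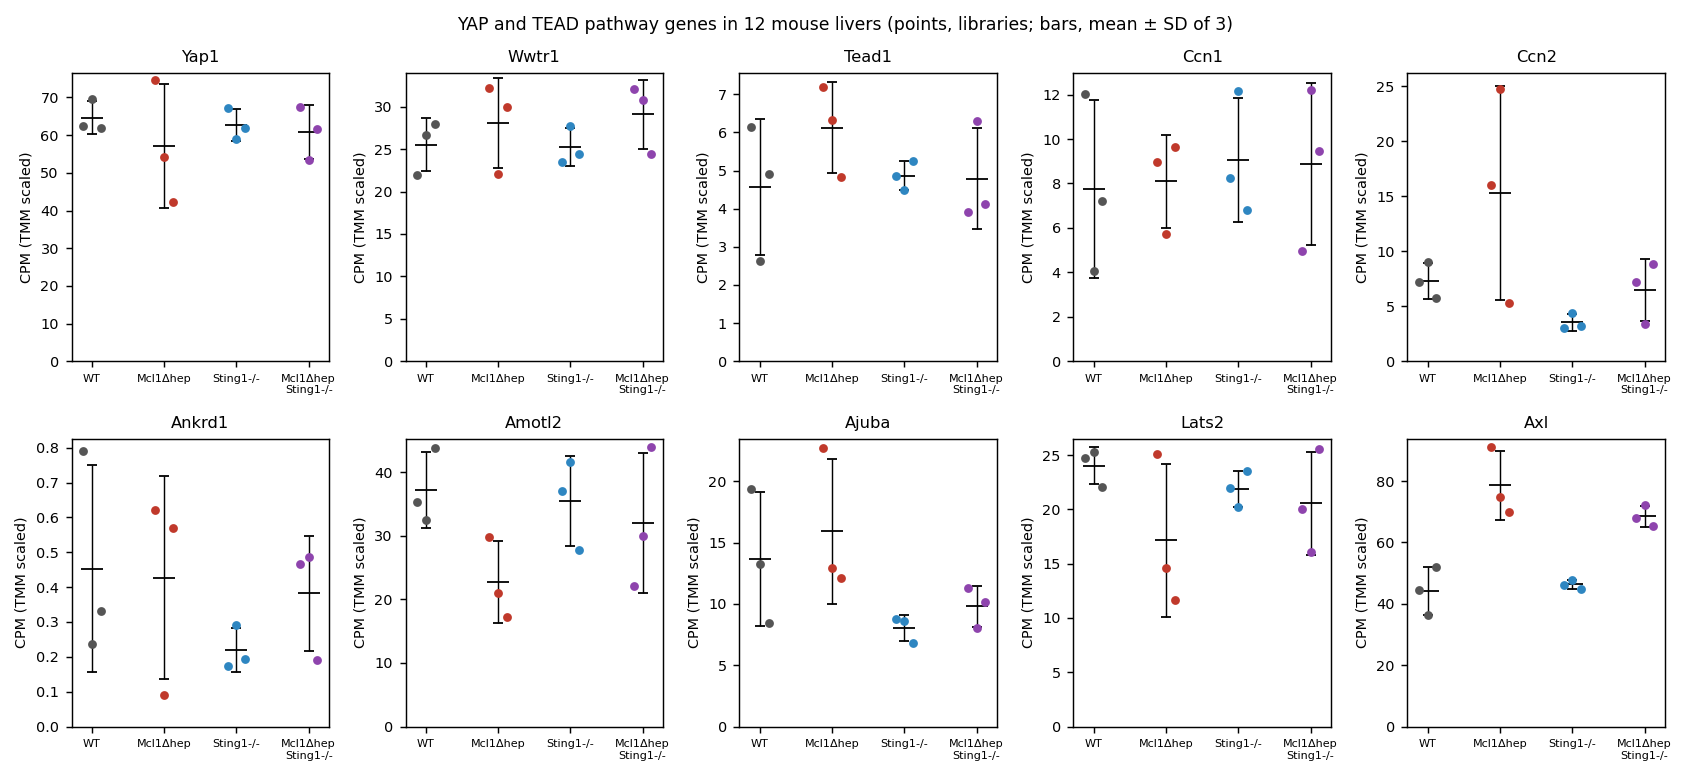
Level of each of the 10 genes in CPM (vertical axes, starting at 0) in the 4 genotypes (horizontal axes). Points are the 12 libraries and bars the mean ± SD of 3; Axl in the 6 Mcl1-deleted livers, at 65.5 to 91.1 CPM, lies above the other 6, at 36.4 to 52.0 CPM.

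Yap1 (chr9:7932000-8004661, minus strand) was at 62.3, 69.7 and 61.8 CPM in WT and at 74.7, 54.1 and 42.3 CPM in Mcl1Δhep livers. The Mcl1Δhep values spread on both sides of WT, with a log2 fold change of -0.18 (95% interval -0.58 to 0.22, adjusted p = 0.503 by edgeR). Without Mcl1Δhep replicate 1, the difference was -0.43 with an edgeR adjusted p of 0.0420. Wwtr1 (chr3:57363067-57483331, minus strand), which encodes the second coactivator TAZ, was at 22.0, 26.6 and 27.9 CPM in WT and 32.1, 22.1 and 30.0 CPM in Mcl1Δhep livers, and these ranges overlapped (log2 fold change 0.14, interval -0.23 to 0.50). Tead1 (chr7:112278522-112506014, plus strand), one of the DNA-binding partners, was at 6.15, 2.64 and 4.92 CPM in WT and 7.20, 6.33 and 4.84 CPM in Mcl1Δhep livers, with a log2 fold change of 0.42 (interval -0.21 to 1.05). A log2 change of 1 in either direction lay outside the intervals of Yap1 and Wwtr1.

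Among the targets, Ccn1 and Ccn2 encode secreted matrix-associated proteins, and both are also known as immediate early genes. Ccn1 (chr3:145352720-145355738, minus strand) was at 12.03, 4.06 and 7.20 CPM in WT and 8.96, 5.72 and 9.65 CPM in Mcl1Δhep livers. The 3 WT livers enclosed all 3 Mcl1Δhep values (log2 fold change 0.06, interval -0.81 to 0.93), and the sign turned with Y-linked expression as a covariate (-0.53). Ccn2 (chr10:24471333-24474900, plus strand) was at 7.18, 9.05 and 5.78 CPM in WT and at 16.0, 24.7 and 5.28 CPM in Mcl1Δhep livers. Replicates 1 and 2 of Mcl1Δhep were above every other library of the series and replicate 3 was below every WT library. Its log2 fold change was 1.06 (interval 0.05 to 2.07) with an unadjusted p of 0.0415 and an adjusted p of 0.121 by edgeR. Without Mcl1Δhep replicate 3 it was 1.46, with an edgeR adjusted p of 0.0190. Ankrd1 (chr19:36089352-36097506, minus strand), an ankyrin repeat protein of nucleus and muscle sarcomere, was at 0.792 CPM or less in every library. Its log2 fold change was -0.07 with an interval from -1.30 to 1.16, so that a change was not detectable at this depth. Skeletal muscle markers summed to 1673 CPM in Mcl1Δhep replicate 3, where Ankrd1 was at 0.57 CPM, inside the range of the other libraries.

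Amotl2, Ajuba and Lats2 are target genes that also act on the pathway. AMOTL2, of the angiomotin family, holds YAP in the cytoplasm, LATS2 phosphorylates YAP and TAZ, and AJUBA is a LIM scaffold that binds and restrains LATS kinases. Amotl2 (chr9:102593836-102610617, plus strand) was at 35.3, 32.4 and 43.8 CPM in WT and at 29.8, 21.0 and 17.2 CPM in Mcl1Δhep livers. Every Mcl1Δhep value was below every WT value. The log2 fold change was -0.71 (interval -1.29 to -0.13), with an unadjusted p of 0.0204 and an adjusted p of 0.0768 by edgeR. DESeq2 gave an adjusted p of 0.0473, and the fit without Mcl1Δhep replicate 1 gave -0.96 with an edgeR adjusted p of 0.0226. Lats2 (chr14:57926960-57995845, minus strand) was at 24.8, 25.2 and 22.1 CPM in WT and 25.1, 14.6 and 11.7 CPM in Mcl1Δhep livers. Replicate 1 of Mcl1Δhep was within the WT range and the other 2 were below it (log2 fold change -0.48, interval -1.02 to 0.06, adjusted p = 0.178 by edgeR). Without replicate 1 the difference was -0.87 with an edgeR adjusted p of 0.00657. Ajuba (chr14:54804787-54815027, minus strand) was at 19.3, 13.2 and 8.45 CPM in WT and 22.7, 12.9 and 12.1 CPM in Mcl1Δhep livers, which overlapped (log2 fold change 0.22, interval -0.43 to 0.87).

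The low values of Amotl2, Lats2 and Yap1 fell in Mcl1Δhep replicates 2 and 3, the libraries with the most small RNA counts. With the small RNA share as a covariate, the log2 fold change against WT was -0.38 for Amotl2, 0.0032 for Lats2 and 0.15 for Yap1, and it was 0.93 for Axl, with an edgeR adjusted p of 0.0296. Without Mcl1Δhep replicate 1, 4 of the 10 genes passed the threshold, Axl higher and Amotl2, Lats2 and Yap1 lower, and 5232 of all genes passed in place of 3050. Lats2 also overlaps Gm49361, a protein-coding gene on the same strand with 6370 counts in the series against 9205 for Lats2. How the authors' counting treated reads shared by both genes was not given, and such reads may have been divided or dropped. With both counts summed the log2 fold change was -0.47 with an edgeR adjusted p of 0.176. A sum cannot restore dropped reads, so the effect of the overlap on Lats2 stayed unknown.

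The same deletion was then compared in mice without STING, as Mcl1Δhep Sting1-/- against Sting1-/-. None of the 10 genes passed the edgeR test (0 higher, where 0.677% of all genes were, and 0 lower, where 0.126% were). By that test 1 of the 10 had an unadjusted p under 0.05, as did 1709 of all 15070 genes. That gene was Axl. DESeq2 called 1 of the 10 genes, also Axl, and 461 of all genes. It was the 1 gene of the 10 without overlap between the groups, against 22.3% of all genes. The median log2 fold change of the 10 genes was 0.09.

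Axl was at 46.2, 47.9 and 44.9 CPM in Sting1-/- livers and at 67.9, 72.3 and 65.5 CPM in Mcl1Δhep Sting1-/- livers. Each double mutant liver lay above each Sting1-/- liver, with little spread in either group. The log2 fold change was 0.56 ± 0.149 (SE; interval 0.24 to 0.89), which is 1.48-fold, with an unadjusted p of 0.00256 and an adjusted p of 0.119 by edgeR and of 0.0172 by DESeq2. Ccn2 was at 3.03, 4.43 and 3.16 CPM in Sting1-/- and at 7.18, 3.39 and 8.84 CPM in double mutant livers, so that double mutant replicate 2 lay within the Sting1-/- range. Its log2 fold change was 0.86 (interval -0.17 to 1.88, adjusted p = 0.551 by edgeR).

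The coactivators and Tead1 lay close to 0 in this comparison, with log2 fold changes of -0.04 for Yap1 (interval -0.44 to 0.36), 0.20 for Wwtr1 (-0.16 to 0.57) and -0.02 for Tead1 (-0.65 to 0.61). Yap1 was at 58.9 to 67.3 CPM in Sting1-/- and 53.3 to 67.4 CPM in double mutant livers. Among the other target genes the log2 fold change was -0.03 for Ccn1, 0.67 for Ankrd1, -0.15 for Amotl2, 0.28 for Ajuba and -0.09 for Lats2, and their lowest edgeR adjusted p was 0.762. Amotl2 was at 37.0, 41.6 and 27.7 CPM in Sting1-/- and at 22.2, 29.9 and 43.9 CPM in double mutant livers. The double mutant values lay on both sides of the Sting1-/- range.

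**Figure D3:**
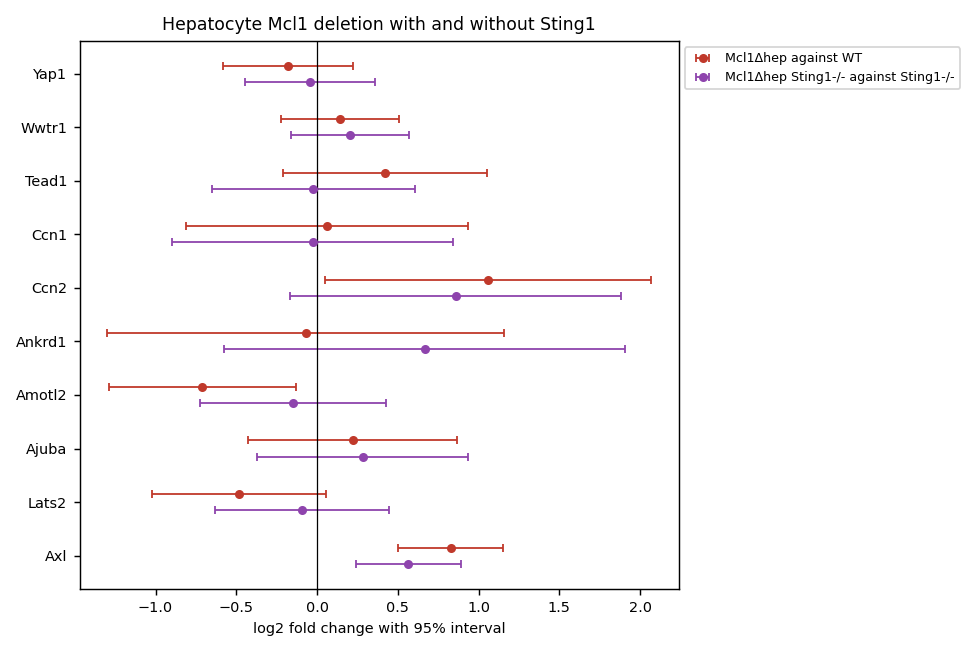
Log2 fold change (horizontal axis) of the 10 genes after hepatocyte Mcl1 deletion, in mice with STING (red, Mcl1Δhep against WT) and without (purple, Mcl1Δhep Sting1-/- against Sting1-/-). Points are edgeR estimates with 95% intervals; both intervals of Axl, 0.50 to 1.15 and 0.24 to 0.89, lie above 0.

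The difference between these Mcl1 effects was tested as an interaction. None of the 10 genes passed (0 of 15070 genes did, 0%, by edgeR, with 2165 at an unadjusted p under 0.05 and 170 called by DESeq2), and 0 of the 10 had an unadjusted p under 0.05. The lowest unadjusted p was 0.158, that of Amotl2 (edgeR adjusted p = 0.495), with a difference of 0.56 on the log2 scale (interval -0.25 to 1.38). For Axl the difference was -0.26 (interval -0.72 to 0.20). No difference between the Axl responses with and without STING was therefore shown, and the interval of the difference spanned 0.

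Averaged over both backgrounds, a contrast added after seeing the data, Mcl1 deletion gave a log2 fold change of 0.70 ± 0.105 (SE) for Axl, 1.62-fold, with an edgeR adjusted p of 0.0014. All 6 Mcl1-deleted livers, at 65.5 to 91.1 CPM, lay above all 6 others, at 36.4 to 52.0 CPM. Axl was the 1 of 10 genes called higher, where 9.90% of all genes were, and 0 were called lower, where 6.83% were. It was also the 1 of 10 without overlap, against 6.95% of all genes. The order of its mean level was Mcl1Δhep, Mcl1Δhep Sting1-/-, Sting1-/- and WT, and neither the first pair (log2 fold change -0.20, adjusted p = 0.465 by edgeR) nor the last pair (0.06, adjusted p = 0.998 by edgeR) differed beyond the spread. Ccn2 followed at 0.96 (interval 0.24 to 1.68, unadjusted p = 0.0134, adjusted p = 0.0673 by edgeR), and DESeq2 gave an adjusted p of 0.0157. Without Mcl1Δhep replicate 3 or without double mutant replicate 2 its edgeR adjusted p was 0.00884 and 0.0455. Amotl2 was at -0.43 (edgeR adjusted p = 0.136), and 0.0443 by edgeR without Mcl1Δhep replicate 1.

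Axl is also known to be expressed by macrophages and stellate cells, and markers of these cells are given beside it. The 8 macrophage markers summed to 408 to 640 CPM in WT and 671 to 803 CPM in Mcl1Δhep livers, with 4 of 8 higher by the edgeR test. The other way went 2 of the 8, with mean levels in WT and Mcl1Δhep livers of 97.9 and 93.4 CPM for Csf1r and 9.08 and 7.45 CPM for Timd4. The 8 markers summed to 529 to 723 CPM in Sting1-/- and 688 to 809 CPM in double mutant livers, which overlapped, with 0 of 8 called. The 8 markers of quiescent stellate cells ran from 264 to 393 CPM in WT to 411 to 475 CPM in Mcl1Δhep livers (2 of 8 higher), and from 349 to 389 CPM in Sting1-/- to 421 to 477 CPM in double mutant livers (0 of 8). In Mcl1Δhep replicate 3, the library with the muscle markers, 69.9 CPM of this sum came from Des, which muscle also expresses and which was at 3.86 to 9.45 CPM in the other 11 libraries. Without Des, a sum added after seeing the data, the range was 259 to 386 CPM in WT and 371 to 468 CPM in Mcl1Δhep livers, which overlapped, and 344 to 385 CPM in Sting1-/- and 415 to 472 CPM in double mutant livers. Of the 8 myofibroblast markers 7 were higher in Mcl1Δhep livers, with sums of 116 to 262 CPM in WT, 498 to 605 CPM in Mcl1Δhep, 121 to 189 CPM in Sting1-/- and 252 to 517 CPM in double mutant livers (0 of 8 called in the last pair). No marker of these lists was at 0 throughout a genotype. The part of these cells in the Axl and Ccn2 values was not tested.

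**Figure D4:**
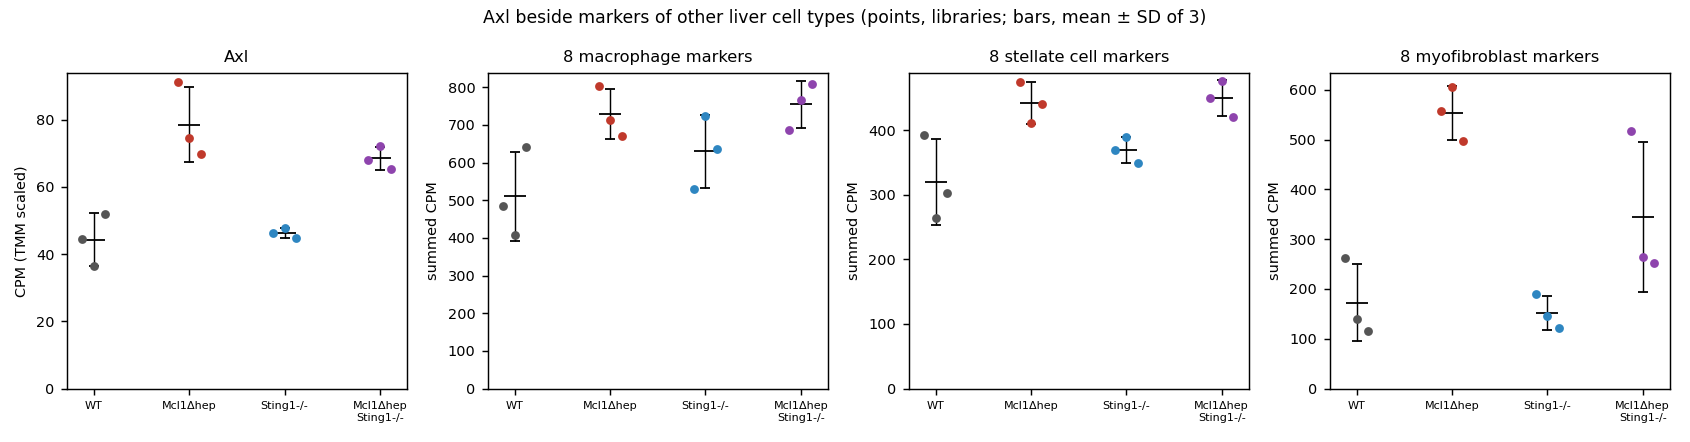
Axl in CPM and the summed CPM of 8 markers each of macrophages, quiescent stellate cells and myofibroblasts (vertical axes, starting at 0) by genotype. Points are libraries and bars the mean ± SD of 3; Axl is higher in each of the 6 Mcl1-deleted livers than in the other 6. The stellate cell sum, 411 to 477 CPM against 264 to 393 CPM, includes 69.9 CPM of Des in Mcl1Δhep replicate 3, and without Des the WT and Mcl1Δhep ranges overlap.

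Cholangiocyte markers summed to 47.1 to 68.1 CPM in WT and 41.6 to 69.4 CPM in Mcl1Δhep livers, with 0 of 7 tested markers called, and endothelial markers to 319 to 460 and 287 to 492 CPM, with 0 of 8 called. Immediate early genes, which can rise during tissue handling, summed to 84.8 to 131 CPM in WT, 186 to 199 CPM in Mcl1Δhep, 109 to 307 CPM in Sting1-/- and 151 to 244 CPM in double mutant livers, and 5 of 11 were higher in Mcl1Δhep than in WT by the edgeR test. Their part in the Ccn1 and Ccn2 values was not tested. Markers of cycling cells summed to 10.6 to 11.4 CPM in WT, 13.7 to 21.5 CPM in Sting1-/- and 46.9 to 173 CPM in the 6 Mcl1-deleted livers. Of these 6 markers 6 were higher in Mcl1Δhep than in WT and 4 in double mutant than in Sting1-/- livers by the edgeR test.

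Loss of Sting1 was compared on each Mcl1 background. In Mcl1Δhep livers, as Mcl1Δhep Sting1-/- against Mcl1Δhep, 0 of the 10 genes passed the edgeR test, as did 0% of all genes (3098 had an unadjusted p under 0.05 and DESeq2 called 681 genes, 0 of the 10 among them). Ccn2 and Ajuba had unadjusted p-values under 0.05 and lower values in the double mutants. Ccn2 was at 7.18, 3.39 and 8.84 CPM against 16.0, 24.7 and 5.28 CPM, with Mcl1Δhep replicate 3 inside the range of the double mutants, and its log2 fold change was -1.24 (interval -2.26 to -0.23, adjusted p = 0.180 by edgeR). Ajuba was at 11.3, 8.02 and 10.1 CPM against 22.7, 12.9 and 12.1 CPM. It was the 1 gene of the 10 without overlap, against 18.2% of all genes, with a log2 fold change of -0.70 (interval -1.35 to -0.04, unadjusted p = 0.0382, adjusted p = 0.219 by edgeR). Amotl2 was at 0.49 (interval -0.08 to 1.07), and Lats2 at 0.26 (interval -0.28 to 0.80), or 0.65 with an edgeR adjusted p of 0.0344 without Mcl1Δhep replicate 1.

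With Mcl1 intact, as Sting1-/- against WT, the edgeR test called 0 of the 10 genes and 0% of all genes (821 had an unadjusted p under 0.05, and DESeq2 called 51). Ccn2 was at 3.03, 4.43 and 3.16 CPM in Sting1-/- and 7.18, 9.05 and 5.78 CPM in WT. It was the 1 of 10 genes without overlap, against 12.5% of all genes, with a log2 fold change of -1.04 (interval -2.07 to -0.01, unadjusted p = 0.0477, adjusted p = 0.910 by edgeR). Ajuba was at 8.76, 8.60 and 6.85 CPM in Sting1-/- against 19.3, 13.2 and 8.45 CPM in WT, with a log2 fold change of -0.76 (unadjusted p = 0.0267, adjusted p = 0.829 by edgeR). WT replicate 3 lay inside the Sting1-/- range for Ajuba. Averaged over both Mcl1 backgrounds, also added after seeing the data, the label Sting1-/- went with a log2 fold change of -1.14 ± 0.331 (SE) for Ccn2 and -0.73 ± 0.212 for Ajuba, with unadjusted p-values of 0.00492 and 0.0050 and an adjusted p of 0.431 for each by edgeR. These comparisons share their libraries with those of Mcl1, and 0 of the 10 genes passed, as did 0 of all genes. In the averaged contrast 2 of the 10 genes and 1535 of all 15070 genes had an unadjusted p under 0.05 by edgeR.

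The rest of the pathway was described from a list of 25 upstream genes and TEAD partners and a list of 16 other published targets. In Mcl1Δhep against WT, 1 of the 25 upstream genes was higher and 2 were lower, against 10.8% and 9.43% of all tested genes, with a list median of -0.19 on the log2 scale. These shares were not above those of all genes, and 0 of the 25 were called with only the 2 groups compared, with Y-linked expression or the small RNA share as a covariate, or without Mcl1Δhep replicate 2 or WT replicate 2. Map4k4, a kinase that can activate LATS, was at 13.5, 9.94 and 11.95 CPM in WT and 36.3, 27.4 and 14.5 CPM in Mcl1Δhep livers (log2 fold change 1.14 ± 0.327 SE, edgeR adjusted p = 0.0312). It stayed over every WT value in each Mcl1Δhep liver, and the call was lost, with an edgeR adjusted p of 0.0757 to 0.112, without Mcl1Δhep replicate 1 or 2 or WT replicate 2 or 3. Mob1b, a cofactor of LATS kinases, was at 38.2, 45.1 and 36.2 CPM in WT and 33.6, 24.9 and 23.6 CPM in Mcl1Δhep livers (-0.54, edgeR adjusted p = 0.0270). Wwc1, the scaffold KIBRA, was at 46.0, 57.2 and 52.3 CPM in WT and 44.9, 27.0 and 25.2 CPM in Mcl1Δhep livers (-0.68, edgeR adjusted p = 0.0314). Both fell most in Mcl1Δhep replicates 2 and 3, where the summed level of all 25 genes was 491 and 426 CPM against 624 to 705 CPM in the other 10 libraries. The edgeR adjusted p of Mob1b was 0.0771 to 0.107 without Mcl1Δhep replicate 2 or 3 or WT replicate 2, and that of Wwc1 was 0.0801 to 0.124 without any of these or WT replicate 3. In double mutant against Sting1-/- livers 0 of the 25 passed, and their median was 0.0027.

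Of the 16 other targets, 14 passed the filter on low counts (Fjx1 and Foxf2 did not), and 2 were higher and 1 was lower in Mcl1Δhep livers, beside 10.8% and 9.43% of all tested genes, with a median of 0.06. A share of this size is near the background and is not a result about the targets as a list. Myof, a ferlin of membrane repair, was at 4.93, 4.98 and 6.04 CPM in WT and 13.4, 13.5 and 10.4 CPM in Mcl1Δhep livers (log2 fold change 1.22 ± 0.155 SE, edgeR adjusted p = 0.00127). It was at 4.92, 5.04 and 4.80 CPM in Sting1-/- and 10.1, 10.5 and 8.37 CPM in double mutant livers (0.96, edgeR adjusted p = 0.0268). The second call was lost without double mutant replicate 1 or 2 or any Sting1-/- replicate, with an edgeR adjusted p of 0.0822 to 0.158, and with only the 2 groups compared (0.0683). Ccdc80, a secreted matrix protein, was at 24.4, 16.4 and 19.3 CPM in WT and 45.7, 44.1 and 37.1 CPM in Mcl1Δhep livers (1.08, edgeR adjusted p = 0.00199), and at 20.4, 20.1 and 18.8 CPM in Sting1-/- and 36.9, 30.6 and 31.0 CPM in double mutant livers (0.73, adjusted p = 0.0587 by edgeR, and 0.0462 without WT replicate 1). For Myof and Ccdc80, as for Axl, each of the 6 Mcl1-deleted livers lay above each of the other 6, and for Dock5 each lay below. These were the 3 of 14 tested targets without overlap in this split, which was added after seeing the data, against 6.95% of all genes. In Mcl1Δhep against WT 4 of the 14 did not overlap, against 33.3% of all genes. In double mutant against Sting1-/- livers 5 of the 14 did not, against 22.3% of all genes. Dock5, an activator of RAC, moved the other way, at 28.3, 32.8 and 32.1 CPM in WT and 22.3, 15.7 and 11.3 CPM in Mcl1Δhep livers (-0.91, edgeR adjusted p = 0.00991), and its call was lost with only the 2 groups compared (-0.89, edgeR adjusted p = 0.0672) and with the small RNA share as a covariate (-0.59, edgeR adjusted p = 0.183). Dock5 was at 27.3, 29.3 and 27.7 CPM in Sting1-/- and 23.1, 24.5 and 25.3 CPM in double mutant livers, where it was not called. The median of the targets in double mutant against Sting1-/- livers was 0.20, with 1 of 14 called.

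**Figure D5:**
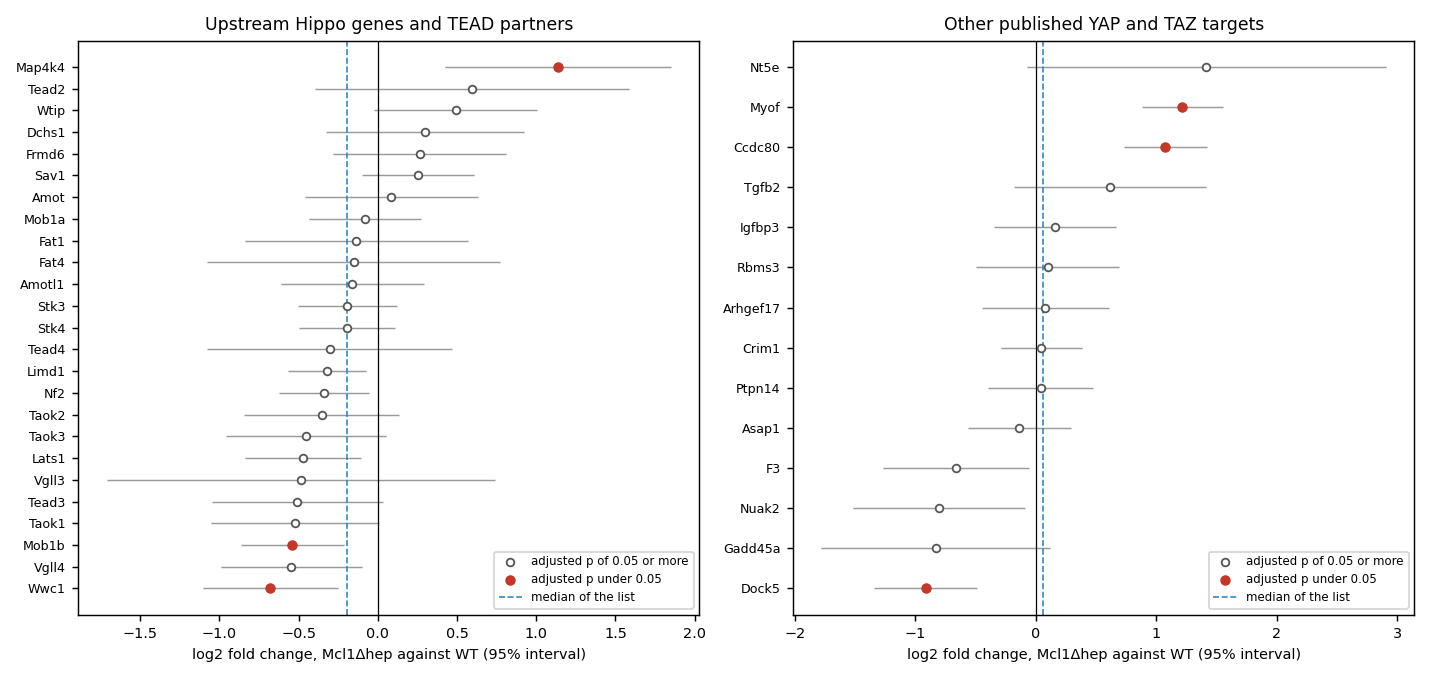
Log2 fold change in Mcl1Δhep against WT livers (horizontal axes) of 25 upstream pathway genes (left) and 14 tested other targets (right), with 95% intervals. Filled points passed the edgeR test, 3 in each list, and the dashed lines mark the list medians of -0.19 and 0.06.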

How the data were processed

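Liver RNA of 12 mice was sequenced as total RNA on an Illumina NovaSeq instrument. The authors deposited raw counts per gene for each library, and the submitters' processing notes name STAR, featureCounts and GRCm39. Versions, annotation and strand setting were not given in the sources used here. Without a known strand setting, reads of overlapping genes cannot be told apart. Labels and methods name different RNeasy kits.

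Counts were fitted with edgeR 4.0.16 (R 4.3.3, limma 3.58.1): filterByExpr, trimmed mean of M values scaling, glmQLFit and glmQLFTest over all 12 libraries in 4 genotypes, a prior count of 2 and Benjamini-Hochberg adjustment over 15070 genes at 0.05. Intervals are 95%. DESeq2 1.42.0 was an alternative, as were RLE scaling, no filter, 2-group fits, a replicate block, Y-linked expression or small RNA share as covariate, and each library left out. The fit was tested on simulated data. TPM used exon lengths of GENCODE vM39, which held 39533 of 40551 identifiers, and promoters its canonical starts. The promoter of Ccn2 is not reported here. No libraries agreed within sampling noise. The labels do not say that samples came from separate litters, so p-values measure the spread between these livers.

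The genes and the lists were chosen with earlier results of these data known. The text names the 10 genes in full, Mcl1 and Sting1 as checks, and list genes past the threshold in either Mcl1 comparison.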

Additional observations from a re-analysis of the deposited data

How the results depend on the processing

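Axl in Mcl1Δhep against WT stayed past the threshold in 19 of 19 alternatives. The numbers of called genes among the 10 moved with DESeq2, from 1 to 2 in Mcl1Δhep against WT, from 0 to 1 in Mcl1Δhep Sting1-/- against Sting1-/-, and from 1 to 2 for Mcl1 deletion averaged over both backgrounds. With one library left out the first and last ranged from 1 to 4 and from 1 to 3, and from 0 to 1 in the double mutant against Mcl1Δhep, with the highest values without Mcl1Δhep replicate 1. Over all genes in Mcl1Δhep against WT, DESeq2 called 3858 where edgeR called 3050. The median log2 fold change of the 10 genes in Mcl1Δhep against WT was 0.10, 0.52 with the small RNA share as a covariate and -0.076 to 0.53 with one library left out. In Sting1-/- against WT it was -0.06, -0.28 with Y-linked expression and 0.16 with the small RNA share as a covariate. For the interaction it was 0.06, -0.25 with the small RNA share and -0.023 to 0.28 with one library left out, and in the double mutant against Mcl1Δhep it was -0.06 and -0.20 to 0.18. The cause was not tested.

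Genes that were not called changed sign. In Mcl1Δhep against WT these were Yap1 (0.15), Ankrd1 (0.73) and Lats2 (0.0032) with the small RNA share and Ccn1 (-0.53) with Y-linked expression as a covariate, and with one library left out Ccn1 (-0.25 to 0.52), Ankrd1 (-0.42 to 0.53) and Ajuba (-0.13 to 0.55). In the double mutant against Sting1-/- they were Tead1 (0.15) and Ccn1 (0.22) with Y-linked expression, and with one library left out Yap1 (-0.12 to 0.043), Tead1 (-0.27 to 0.10), Ccn1 (-0.33 to 0.25), Amotl2 (-0.42 to 0.057), Lats2 (-0.25 to 0.059) and Wwc1 (-0.062 to 0.014). In Sting1-/- against WT, Axl ran from -0.058 to 0.20.

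Upstream genes called in Mcl1Δhep against WT numbered 3, 5 by DESeq2, 0 with only the 2 groups compared, 0 with Y-linked expression or the small RNA share as a covariate, and 0 to 10 with one library left out (0 without Mcl1Δhep replicate 2 or WT replicate 2, 10 without Mcl1Δhep replicate 1). All genes called numbered 3050 there, 3858 by DESeq2, 1178 with 2 groups, 1611 with Y-linked expression, 407 with the small RNA share and 1233 to 5232 with one library left out. They numbered 121 in the double mutant against Sting1-/-, 17 with 2 groups, 51 with Y-linked expression, 461 by DESeq2 and 1 to 249 with one library left out. Mcl1 deletion averaged gave 2522, 1599 with the small RNA share and 1711 to 4267 with one library left out. In the double mutant against Mcl1Δhep 0 genes were called, 3 with Y-linked expression, 681 by DESeq2 and up to 3108 with one library left out. Sting1-/- against WT gave 0, 2 with 2 groups and 51 by DESeq2, and the interaction 0, 170 by DESeq2 and up to 1574 with one library left out.

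Same-numbered libraries did not deviate together (correlations -0.54 to 0.25 over 18 pairs, 3 over 0.1). With the replicate block Axl in Mcl1Δhep against WT was at 0.83, adjusted p 0.0111 by edgeR, and 2591 genes were called. It moved Wwc1 in that comparison to an edgeR adjusted p of 0.0510 and Ccdc80 in the double mutant against Sting1-/- to 0.0432. Intervals were widest for Ankrd1, the gene with the fewest counts.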
